A study of Homo sapiens with 18 samples.

Results

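The epithelial junction and polarity genes are 39 named genes that build, anchor or direct the contacts between epithelial cells. They were chosen by symbol from a table of 61552 genes. All 39 were found, and 38 were among the 19038 genes with enough counts to be tested. The gene left out, CLDN1, held 0 to 11 reads in a library. The cells were HCT116, an established human colorectal carcinoma line, carrying a knock-in of IκBα (product of NFKBIA), the inhibitor that keeps NF-κB in the cytoplasm. Of the lines compared, WT carries a wild-type knock-in allele, N108 a mutant allele whose change the labels do not spell out, and M3 an allele in which the residues H84, E85 and E86 are alanine. Cells of each line were left untreated or received hTNFα (human tumour necrosis factor, 0.1 µg/mL) during 40 min, and every one of the 6 groups has 3 libraries, 18 in all. By its title, the study concerns functions of IκBα outside NF-κB and their bearing on intestinal stem cell properties. The labels name no clone, so the IκBα allele and any other difference between the lines cannot be told apart. They also do not say whether the libraries of a group came from separate cultures, and p-values then reflect only how far these libraries lie apart, possibly for technical reasons alone.

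Epithelial cells are held together by a belt of adherens junctions, in which E-cadherin (CDH1) binds its like on the neighbouring cell and hands the load to actin through catenins, while nectins make a parallel contact tied to actin by afadin. Desmosomes join the keratin filaments of neighbouring cells. Tight junctions seal the gap with claudins and occludin on a scaffold of ZO proteins, and the PAR and Crumbs complexes place that seal at the border of the apical surface. In the gut this barrier separates the lumen from the tissue, and inflammatory cytokines such as TNF are known to loosen it. Transcription repressors of the SNAI and ZEB families bind E-box letters in promoters of junction genes, while GRHL2, ESRP1 and ESRP2 keep the epithelial programme on.

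Library totals were 49021907 to 76947190 counts. NFKBIA was at 91.6 ± 4.6 CPM (read counts relative to the scaled library total, mean ± SD, n = 3) in untreated WT, 30.3 ± 1.8 in N108 and 77.9 ± 1.2 in M3, and at 758 ± 20, 276 ± 19 and 966 ± 21 CPM with TNF. The keratins of simple epithelia, KRT8, KRT18 and KRT19, were abundant, while 5 of 12 colon epithelial markers (CDX1, VIL1, CDH17, LGALS4 and PHGR1) were too low to be tested. The summed level of the 12 markers was 5767 to 6079 CPM in untreated WT libraries, 4342 to 4621 in N108 and 3595 to 3929 in M3. KRT8 was lower by 0.33 in N108 and by 0.63 in M3 on the log2 scale, KRT18 by 0.40 and 0.99, and KRT19 by 0.49 and 0.52. Of the 7 markers tested, 5 were lower and 1 higher in each mutant, and the sum is nearly all KRT8, KRT18 and KRT19. The marker that was higher was CDX2, a transcription factor of the intestinal epithelium, at 21.7, 22.1 and 23.6 CPM in WT, 29.3, 27.3 and 29.1 in N108 and 24.7, 24.2 and 26.5 in M3 (0.35 and 0.16, adjusted p = 7.7e-06 and 0.015). CDX2 was named after its values were seen. The mutant lines thus differ from WT in these markers as well as in the genes below, and the part of the markers in the results was not tested. In bulk RNA, fewer cells of a type and less RNA per cell cannot be told apart. Fibroblast markers summed to 27.1 to 36.9 CPM over the untreated libraries, nearly all of it COL1A1 and COL3A1, with COL1A2 at 0 to 0.006 CPM as a group mean and DCN, LUM and THY1 at 0. Endothelial markers summed to 1.37 to 2.45 CPM and immune markers to 0.553 to 3.59 CPM.

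Promoter windows, from 250 bases before to 50 after the start site, came from RefSeq (GRCh38.p14), which held 36 windows for 24 of the 39 genes. Windows are printed below for 5 genes at lower levels in both mutant lines than in WT, because their letters can be read beside that difference. They are written 5′ to 3′ along the gene with the E-box letters CAGGTG, or CACCTG on the other strand, in capitals. The NECTIN3 window is chr3:111071566-111071865, that of CLDN4 is chr7:73830746-73831045, that of PATJ is chr1:61742230-61742529, that of CRB3 is chr19:6464021-6464320, and the first of 2 for OCLN is chr5:69492297-69492596, all on the plus strand.
NECTIN3: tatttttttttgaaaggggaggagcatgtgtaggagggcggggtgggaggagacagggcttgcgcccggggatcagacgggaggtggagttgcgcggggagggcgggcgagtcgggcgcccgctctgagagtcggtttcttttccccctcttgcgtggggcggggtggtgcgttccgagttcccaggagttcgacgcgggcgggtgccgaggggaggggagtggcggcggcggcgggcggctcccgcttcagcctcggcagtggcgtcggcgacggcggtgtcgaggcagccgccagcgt
CLDN4: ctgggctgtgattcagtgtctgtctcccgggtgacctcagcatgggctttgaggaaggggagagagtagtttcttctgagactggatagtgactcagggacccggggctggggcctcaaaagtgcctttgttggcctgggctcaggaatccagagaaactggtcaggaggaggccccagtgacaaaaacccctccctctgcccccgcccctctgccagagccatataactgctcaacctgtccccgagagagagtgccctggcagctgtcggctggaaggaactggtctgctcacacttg
PATJ: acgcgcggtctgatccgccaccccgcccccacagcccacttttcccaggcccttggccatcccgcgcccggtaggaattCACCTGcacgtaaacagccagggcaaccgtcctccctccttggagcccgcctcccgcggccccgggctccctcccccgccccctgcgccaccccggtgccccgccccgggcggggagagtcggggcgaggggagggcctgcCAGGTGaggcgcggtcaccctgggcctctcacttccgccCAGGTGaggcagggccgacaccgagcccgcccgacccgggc
CRB3: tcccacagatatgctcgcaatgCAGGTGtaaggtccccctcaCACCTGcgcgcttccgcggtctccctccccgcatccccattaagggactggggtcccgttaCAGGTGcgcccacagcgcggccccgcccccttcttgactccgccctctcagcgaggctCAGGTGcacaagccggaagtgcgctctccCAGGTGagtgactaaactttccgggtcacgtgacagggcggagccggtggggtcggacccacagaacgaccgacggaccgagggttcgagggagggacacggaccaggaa
OCLN: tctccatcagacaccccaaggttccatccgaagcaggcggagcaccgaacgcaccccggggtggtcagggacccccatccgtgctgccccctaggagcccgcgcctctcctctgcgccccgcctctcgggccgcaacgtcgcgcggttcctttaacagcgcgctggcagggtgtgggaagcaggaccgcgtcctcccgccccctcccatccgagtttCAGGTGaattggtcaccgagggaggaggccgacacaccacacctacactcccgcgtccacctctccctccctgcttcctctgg
The CRB3 window held 5 E-boxes and the PATJ window 3, the latter starting 171 and 30 bases before the start site and 9 bases after it. The OCLN window printed held 1 and its second window, not printed, held 2, while the NECTIN3 and CLDN4 windows held none. CGN, also lower in both untreated mutants, had a window without these letters that is not printed. Over the list, 14 of 36 windows, belonging to 13 of 24 genes, held these letters, against 20.6% of all 35116 RefSeq windows of the same length. Those genes included DSG2 and DSC2, which were higher in N108 than in WT, and CLDN7, which did not differ between lines past the threshold. The letters AACCGGTT, bound by GRHL proteins and the same on both strands, were in 0.134% of all windows and in none of the 36. The NF-κB consensus was in 11.3% of all windows and in those of CLDN1 and CTNNA1. Matches were counted on both strands, no match of one motif overlapped another in the windows printed, and a match describes letters, not binding. CDH1, CLDN23 and NECTIN1 had no window in the table.

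Levels per transcript length (TPM) put the list in order in untreated WT cells. EPCAM, a homophilic adhesion molecule of epithelia, was highest at 412 ± 24 TPM. JUP (plakoglobin, shared by desmosomes and adherens junctions) followed at 370 ± 14 TPM, ahead of CLDN4 at 227 ± 7.1, CTNNA1 at 218 ± 7.7, CLDN7 at 199 ± 3.1, CDH3 at 170 ± 9.8, PKP3 at 164 ± 14 and ESRP1 at 150 ± 3.7. EPCAM and JUP lay further apart than their SDs, while CLDN4 and CTNNA1, and CDH3 and PKP3, did not. CDH1 stood at 119 ± 6.1 TPM, below the P-cadherin gene CDH3. At the low end were CGNL1 at 5.66 ± 0.22 TPM, NECTIN4 at 5.10 ± 0.45, CLDN2 at 2.29 ± 0.48 and CLDN1 at 0.107 ± 0.044. CLDN4, CLDN7 and CLDN3 (74.7 ± 5.4 TPM) held most of the TPM of the 8 listed claudins. The plot of levels by gene shows the 3 lines close together for most genes and apart for NECTIN3, NECTIN1 and CLDN2. The points of CLDN1 also lie apart, at 0.107 TPM in WT, 0.039 in N108 and 0.022 in M3, but rest on 0 to 10 reads in a library.

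**Figure D1:**
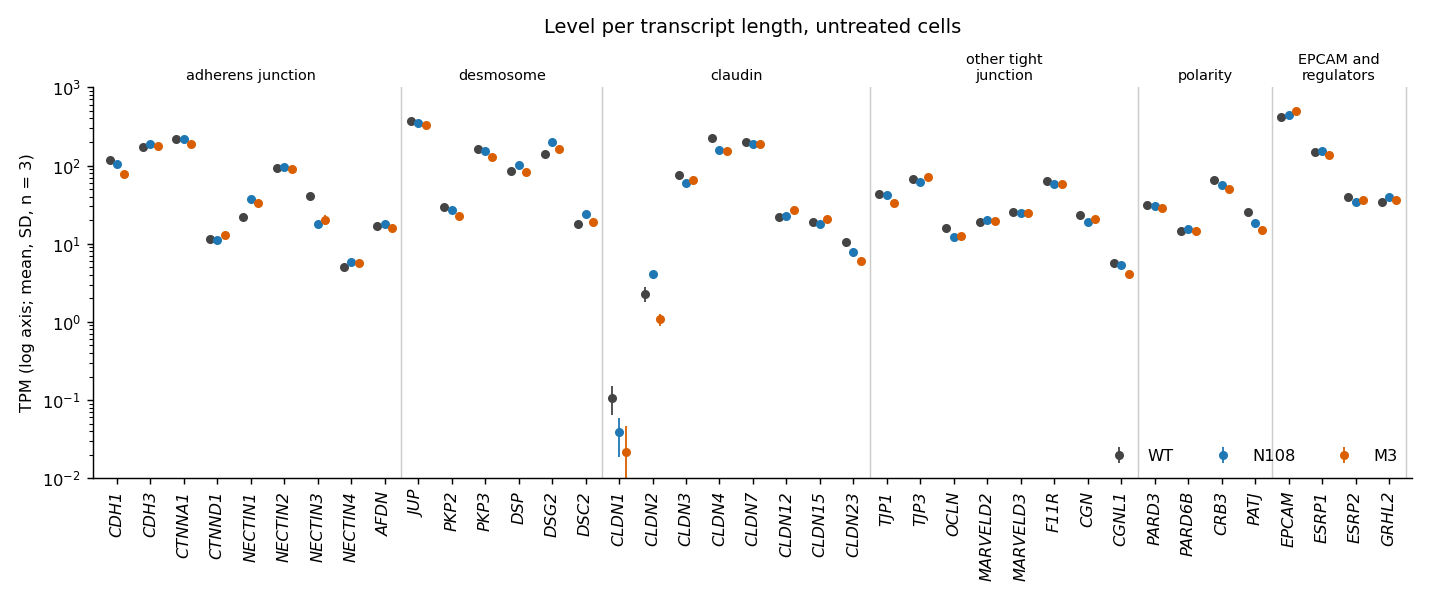
Level of each of the 39 genes in untreated cells, in TPM on a log axis, by junction type, with points for the mean and bars for the SD of 3 libraries in WT (grey), N108 (blue) and M3 (orange). EPCAM is at the top at 412 TPM in WT and CLDN1 at the bottom at 0.107, and most genes have their 3 points close together.

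Without TNF, 6 of 38 genes were higher and 11 lower in N108 than in WT, and 6 were higher and 14 lower in M3 than in WT (edgeR quasi-likelihood test, two-sided, p adjusted by Benjamini-Hochberg over all genes tested, threshold 0.05). Over all genes tested, 20.9% were higher and 21.6% lower in N108, and 26.1% higher and 26.8% lower in M3. The share of the list that was called was therefore near that of the whole table. The median log2 fold change of the list was -0.03 in N108 against 0.01 over all genes, and -0.07 in M3 against 0.00. The median size of change, whatever its sign, was 0.13 for the list and 0.21 for all genes in N108, and 0.15 and 0.28 in M3. Both comparisons use the same 3 WT libraries, so the values of the mutants are given side by side and are not independent of each other. Most calls were small: 13 of the 17 in N108 and 13 of the 20 in M3 were under 0.5 on the log2 scale.

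**Figure D2:**
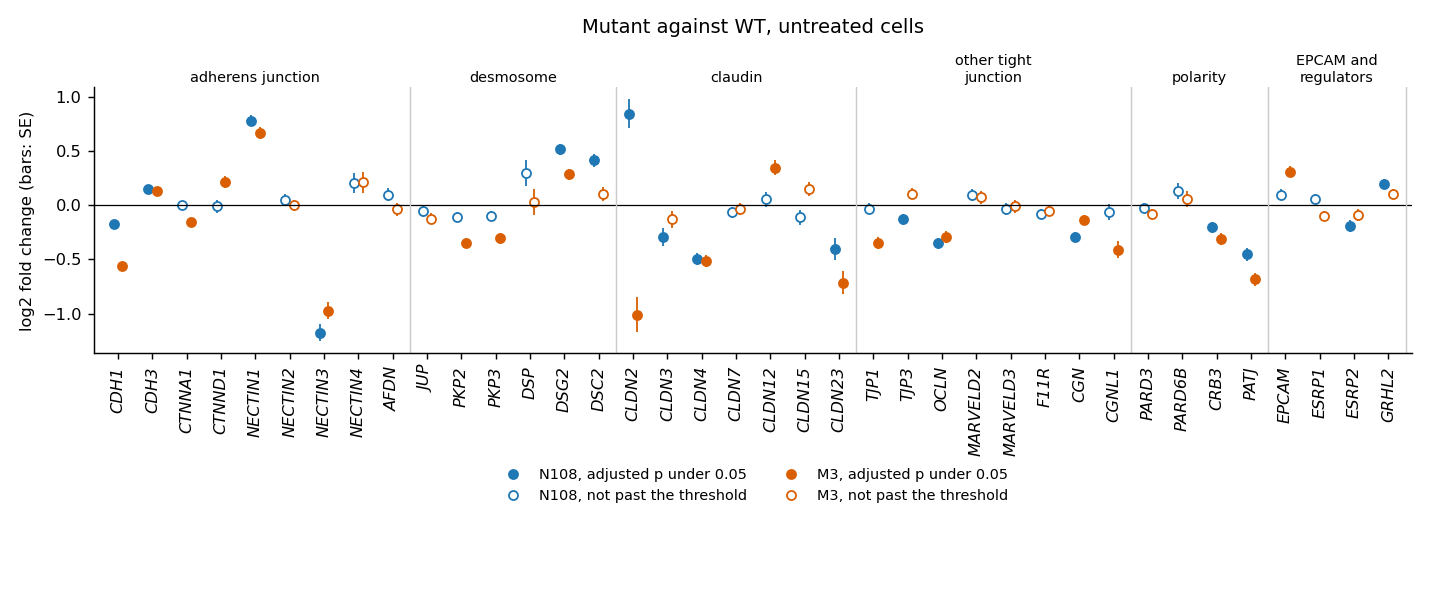
Log2 fold change (points) with SE (bars) of the 38 genes tested in untreated N108 (blue) and M3 (orange) against untreated WT, with filled points where the adjusted p was under 0.05. NECTIN3 lies lowest in N108 at -1.18, CLDN2 lies at 0.84 in N108 and -1.01 in M3, and the remaining points lie between -1 and 1.

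Among the listed adherens junction genes, NECTIN3 and NECTIN1 had the largest called differences in each mutant. NECTIN3 (ENSG00000177707, chr3:111070071-111275563, GENCODE 29 on GRCh38), an immunoglobulin-like adhesion molecule that pairs with nectins of the neighbouring cell, was at 76.1, 67.8 and 65.7 CPM in the WT libraries, 31.0, 33.1 and 28.6 in N108, and 37.1, 39.3 and 30.3 in M3. Every mutant library was below every WT library. The log2 fold change was -1.18 (SE 0.078, adjusted p = 3.4e-11) in N108, 55.8% lower, and -0.97 (SE 0.078, adjusted p = 4.4e-10) in M3, 49.1% lower. Its partner NECTIN1 (ENSG00000110400, chr11:119623408-119729084), which binds NECTIN3 across the contact, went the other way: 45.3, 46.2 and 47.5 CPM in WT, 81.6, 76.98 and 80.3 in N108, and 69.7, 74.9 and 76.0 in M3. That is a log2 fold change of 0.78 (SE 0.053, adjusted p = 1.9e-12) in N108 and 0.67 (SE 0.053, adjusted p = 2.9e-11) in M3. NECTIN2, NECTIN4 and AFDN, the afadin that ties nectins to actin, did not pass the threshold in either mutant, with log2 fold changes in N108 and M3 of 0.05 and -0.00, 0.20 and 0.21, and 0.10 and -0.04.

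CDH1 (ENSG00000039068, chr16:68737225-68835548) was at 199.98, 199.8 and 208 CPM in WT, 178, 178 and 182 in N108, and 138, 139 and 135 in M3. The 3 lines did not overlap, with M3 lowest. The log2 fold change was -0.17 (SE 0.038, adjusted p = 4.9e-04) in N108, 11.4% lower, and -0.56 (SE 0.038, adjusted p = 1.2e-12) in M3, 32.2% lower. CDH3, the P-cadherin that shares its catenins, was slightly higher in both mutants, at 291, 287 and 303 CPM in WT, 328, 324 and 326 in N108 and 314, 325 and 324 in M3. Its log2 fold changes were 0.15 and 0.13 (adjusted p = 0.0027 and 0.0067). The α-catenin gene CTNNA1 was lower in M3 (-0.15, adjusted p = 9.4e-04) and at 0.00 in N108. CTNND1, the p120 catenin that holds cadherins at the membrane, was at 27.8, 27.4 and 27.8 CPM in WT, 27.0, 29.04 and 26.3 in N108 and 33.0, 33.8 and 29.4 in M3. It was higher in M3 (0.21, SE 0.058, adjusted p = 0.0030) and at -0.01 in N108, and it shares 3.65% of its exon bases with a read-through gene on the same strand, TMX2-CTNND1.

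Of the 6 listed desmosome genes, 2 were higher and none lower in N108, and 1 was higher and 2 lower in M3. The desmosomal cadherin DSG2 (ENSG00000046604, chr18:31498043-31549008) was at 239, 248 and 231 CPM in WT, 341, 350 and 335 in N108 and 294, 309 and 272 in M3, so that N108 was above M3 and M3 above WT in every library. Its log2 fold changes were 0.51 (SE 0.049, adjusted p = 1.5e-09) and 0.29 (SE 0.049, adjusted p = 1.6e-05). DSC2, its partner cadherin, was at 66.2, 62.1 and 58.6 CPM in WT, 83.2, 86.04 and 79.8 in N108 and 69.1, 72.2 and 59.7 in M3. It was higher in N108 (0.41, SE 0.061, adjusted p = 3.1e-06), and in M3 the difference of 0.10 did not pass the threshold. The plakophilins, plaque proteins under those cadherins, were lower in M3 (PKP2 -0.34, PKP3 -0.31, adjusted p = 5.4e-07 and 8.6e-06) and at -0.11 and -0.10 in N108, where they did not pass. JUP (-0.06 in N108, -0.12 in M3) and DSP, the desmoplakin that binds keratin (0.30 and 0.03), did not pass in either.

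Of the 7 listed claudins tested, 1 was higher and 3 lower in each mutant. CLDN2, which forms a channel for cations and water and makes tight junctions leaky, was the one gene of the list called in opposite directions in the mutants. It was at 2.15, 1.77 and 2.54 CPM in WT, 4.21, 3.69 and 3.61 in N108 and 1.12, 1.19 and 0.859 in M3 (ENSG00000165376, chrX:106900164-106930861). The lines did not overlap. The log2 fold change was 0.84 (SE 0.13, adjusted p = 6.4e-06) in N108 and -1.01 (SE 0.16, adjusted p = 5.3e-06) in M3, and between N108 and M3 it was 1.85 (SE 0.15, adjusted p = 1.2e-10), a 3.61-fold difference.

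CLDN4 (ENSG00000189143, chr7:73799542-73832693), a sealing claudin and the most abundant listed claudin per length in untreated WT, was at 295, 294 and 295 CPM in WT, 217, 199.9 and 210 in N108 and 201, 201 and 219 in M3. Both mutants were below WT in every library and overlapped each other, and per length CLDN4 was then below CLDN7, at 159 against 189 TPM in N108 and 154 against 188 in M3. The log2 fold changes of CLDN4 were -0.50 (SE 0.055, adjusted p = 2.6e-08) and -0.51 (SE 0.055, adjusted p = 8.8e-09). CLDN23 (ENSG00000253958, chr8:8701938-8704106), a claudin of differentiated gut epithelium, was at 6.04, 5.77 and 6.82 CPM in WT, 4.83, 4.10 and 5.17 in N108 and 3.39, 4.06 and 3.86 in M3. It was lower by 0.40 (SE 0.10, adjusted p = 0.0020) in N108 and by 0.71 (SE 0.11, adjusted p = 2.0e-06) in M3.

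CLDN3, another sealing claudin, was at 26.2, 25.2 and 27.5 CPM in WT, 21.8, 20.5 and 22.2 in N108 and 21.9, 23.5 and 26.7 in M3. It was lower in N108 (-0.29, SE 0.080, adjusted p = 0.0048), while in M3 the difference of -0.13 did not pass and the libraries overlapped those of WT. CLDN12 was at 44.8, 39.9 and 39.7 CPM in WT, 42.8, 45.9 and 40.7 in N108 and 57.4, 53.7 and 46.9 in M3. It was higher in M3 (0.34, SE 0.070, adjusted p = 1.7e-04) and at 0.06 in N108, which did not pass. N108 was below M3 by 0.29 (adjusted p = 0.0022). CLDN12 shares 347 exon bases with GTPBP10 on the same strand, a gene at 27.1 to 37.6 CPM, so some of its reads could belong to that gene. CLDN7 (-0.07 and -0.03) and CLDN15 (-0.11 and 0.15), a channel claudin of the intestine, did not pass in either mutant.

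Of the 8 listed tight junction genes that are not claudins, none was higher in a mutant, and 3 were lower in N108 and 4 in M3. Occludin (OCLN, ENSG00000197822, chr5:69492292-69558104), a membrane protein of the sealing strands, was at 29.9, 30.6 and 28.4 CPM in WT, 24.3, 23.0 and 22.6 in N108 and 24.9, 24.7 and 23.0 in M3. Both mutants lay below WT in every library, by 21.6% in N108 (-0.35, SE 0.054, adjusted p = 5.3e-06) and by 18.5% in M3 (-0.30, SE 0.054, adjusted p = 4.0e-05). Cingulin (CGN), which links the seal to actomyosin, was at -0.29 in N108 and -0.14 in M3 (adjusted p = 1.2e-05 and 0.015). Its relative CGNL1 was lower in M3 (-0.41, adjusted p = 4.4e-05) and at -0.06 in N108. The ZO scaffolds differed too: TJP1 (ZO-1) was lower in M3 (-0.35, adjusted p = 2.3e-06) and at -0.03 in N108, and TJP3 (ZO-3) was lower in N108 (-0.13, adjusted p = 0.045) and at 0.11 in M3, where it did not pass. MARVELD2 (tricellulin), MARVELD3 and F11R (JAM-A) lay between -0.08 and 0.10 and did not pass in either mutant. F11R shares 36.6% of its exon bases with AL591806.3 on the same strand, a gene at 0.827 to 2.05 CPM. MARVELD3 shares 16.6% with PHLPP2 on the opposite strand, a gene at 22.9 to 50.9 CPM.

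Of the 4 listed polarity genes, PATJ and CRB3, both of the Crumbs complex, were lower. PATJ (ENSG00000132849, chr1:61742406-62178675), its scaffold, was at 80.3, 83.7 and 85.4 CPM in WT, 60.1, 61.4 and 60.7 in N108 and 52.6, 53.1 and 49.6 in M3, without overlap between any of the lines. The log2 fold changes were -0.45 (SE 0.058, adjusted p = 3.7e-07) and -0.68 (SE 0.059, adjusted p = 1.2e-10). CRB3, its membrane anchor, was at -0.20 and -0.31 (adjusted p = 0.0022 and 1.4e-05). PARD3 (-0.02 and -0.08) and PARD6B (0.13 and 0.06), of the PAR complex, did not pass.

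EPCAM (ENSG00000119888, chr2:47345158-47387601) was at 286, 278 and 296 CPM in WT, 304, 318 and 298 in N108 and 371, 354 and 341 in M3. It was higher in M3 (0.31, SE 0.052, adjusted p = 1.3e-05), and in N108 the difference of 0.10 (SE 0.052, adjusted p = 0.14) did not pass. GRHL2, a transcription factor that keeps CDH1 and claudins expressed in epithelia, was at 57.2, 58.8 and 58.1 CPM in WT, 66.3, 65.7 and 67.6 in N108 and 62.8, 64.0 and 60.0 in M3. It was higher in N108 (0.20, SE 0.047, adjusted p = 0.0011) and at 0.10 (adjusted p = 0.067) in M3. ESRP1, the splicing factor that sets epithelial isoforms, was at 209, 203 and 196 CPM in WT, 214, 215 and 203 in N108 and 196, 196 and 176 in M3, with log2 fold changes of 0.05 and -0.10 that did not pass (adjusted p = 0.37 and 0.068). Its relative ESRP2 was lower in N108 (-0.19, adjusted p = 0.0047) and at -0.09 in M3.

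**Figure D3:**
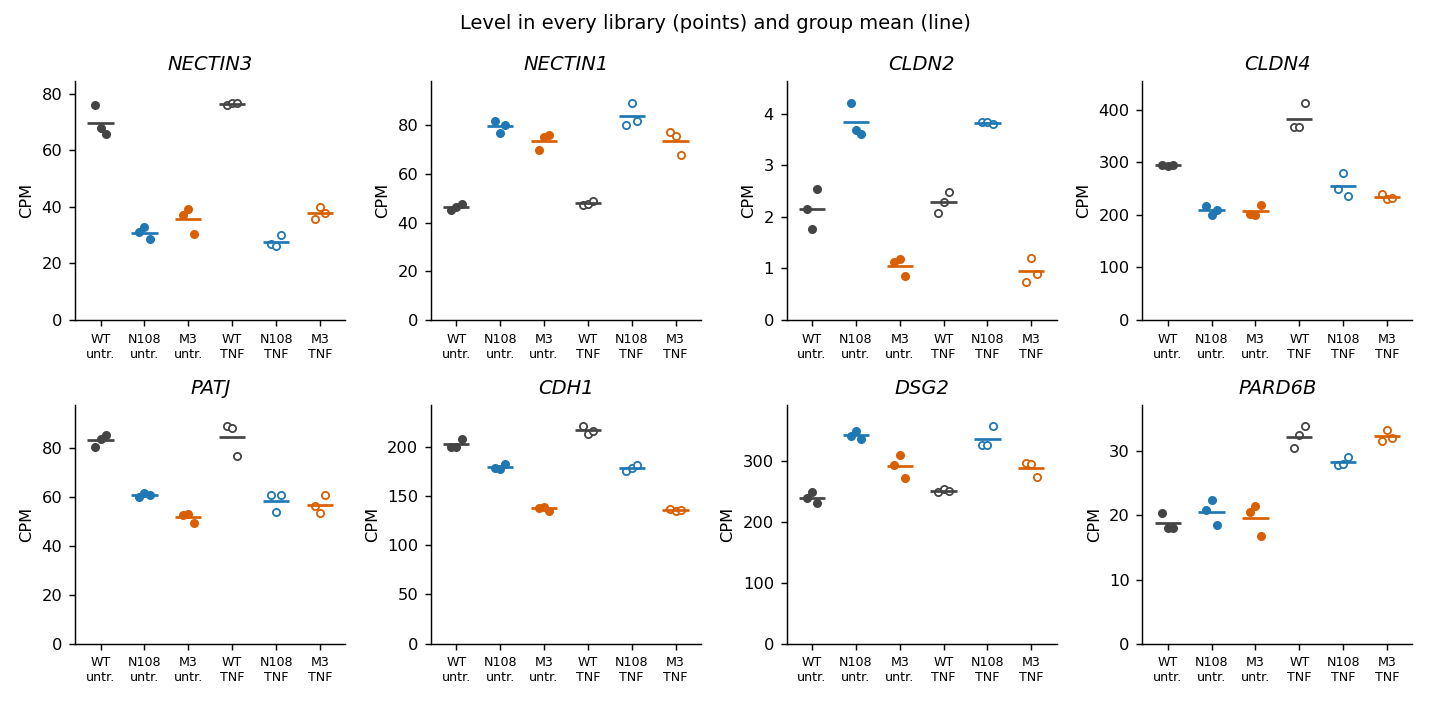
CPM of 8 genes in every library (points) with the group mean (line), for WT (grey), N108 (blue) and M3 (orange), untreated (filled) and with TNF (open). NECTIN3, CLDN4, PATJ and CDH1 sit lower in the mutants, NECTIN1 and DSG2 higher, CLDN2 on either side of WT, and PARD6B is higher in all 3 lines with TNF.

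The libraries treated with TNF gave a second measurement of each difference between the same lines. Its group means came from libraries other than those of the untreated means. The spread between libraries was estimated over all groups together, so calls untreated and with TNF are not independent of each other. With TNF, 8 of 38 genes were higher and 14 lower in N108 than in WT (23% and 23.6% of all genes), and 6 were higher and 19 lower in M3 (26.9% and 27.8%). All 14 genes that were lower in untreated M3 were lower there too, as were 8 of the 11 lower in untreated N108. Of the 6 higher in each untreated mutant, 5 were higher again in N108 and 4 in M3. In all, 16 of 17 genes called in untreated N108 and 19 of 20 in untreated M3 kept their sign, the exceptions being ESRP2 in N108 (0.01) and CDH3 in M3 (-0.00). No gene was called in opposite directions in the untreated and TNF libraries of a line. How often all genes tested kept their call or sign is not given here. Whether this repeat was particular to the list was not tested.

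With TNF, NECTIN3 was at 75.9, 76.6 and 76.9 CPM in WT, 26.8, 26.1 and 29.9 in N108 and 35.8, 39.8 and 37.8 in M3. The log2 fold changes were -1.47 (SE 0.080) and -1.02 (SE 0.078), again with every mutant library below WT. NECTIN1 was at 0.80 and 0.61, CDH1 at -0.28 and -0.67, CLDN4 at -0.58 and -0.71, and PATJ at -0.53 and -0.57, with adjusted p from 2.2e-14 (CDH1 in M3) to 1.0e-06 (CDH1 in N108). CLDN2 was at 2.07, 2.30 and 2.49 CPM in WT, 3.84, 3.84 and 3.80 in N108 and 0.736, 1.21 and 0.886 in M3, a log2 fold change of 0.74 and -1.30 and so again on either side of WT. Genes that passed only with TNF included DSP, NECTIN4 and AFDN (higher) and PKP2, TJP1, CLDN12, F11R, PARD6B and ESRP1 (lower) in N108, and CLDN15 and NECTIN4 (higher) and JUP, CLDN3, F11R, PARD3 and ESRP1 (lower) in M3. WT TNF replicate 3 was low for DSP (258, 245 and 175 CPM in WT, 288, 284 and 312 in N108). The same library was low for AFDN (65.7, 62.6 and 52.2 in WT, 68.2, 65.0 and 71.7 in N108), where the lines overlapped. MARVELD2, MARVELD3, CLDN7 and NECTIN2 passed in none of the 4 comparisons with WT.

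**Figure D4:**
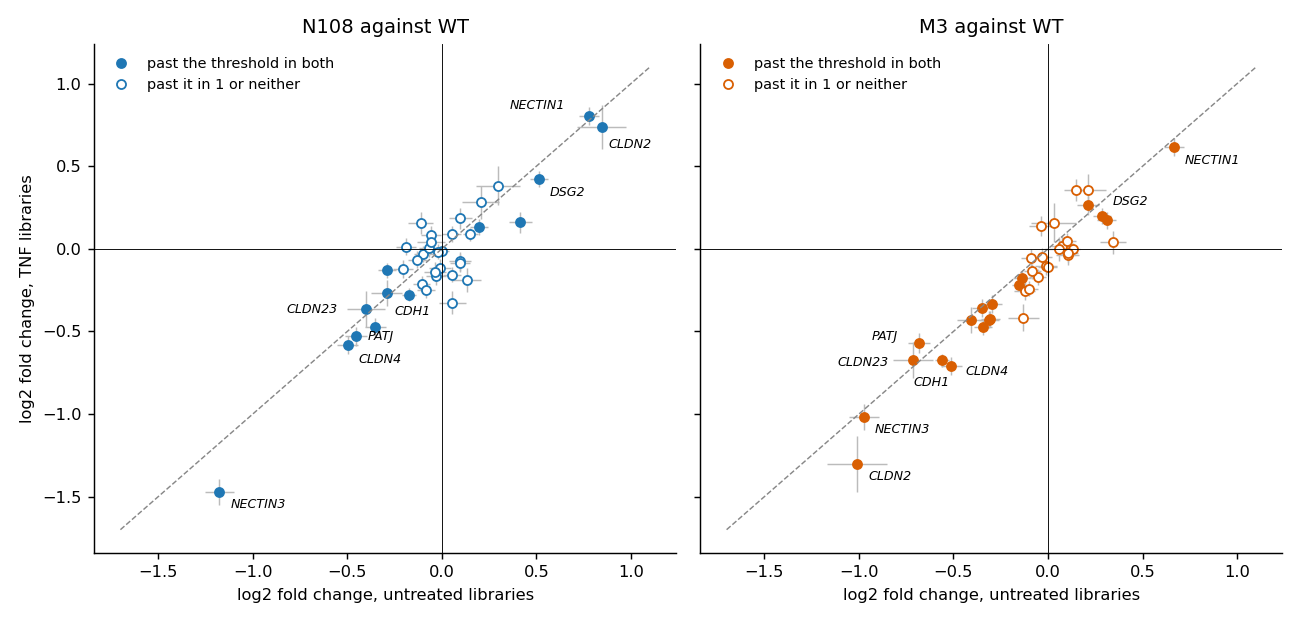
Log2 fold change of each gene against WT in untreated libraries (horizontal) and in TNF libraries (vertical), with SE bars, for N108 (left) and M3 (right), filled where the adjusted p was under 0.05 in both. Points lie along the dashed line of equal values, with NECTIN3 at -1.18 and -1.47 in N108 and CLDN2 at -1.01 and -1.30 in M3 farthest down.

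Compared directly, the mutant lines differed from each other as well. Untreated, 12 of 38 genes were higher and 6 lower in N108 than in M3 (16.4% and 15% of all genes), and with TNF 15 were higher and 7 lower (20% and 17.3%). Of the 6 listed desmosome genes, 4 were higher in N108 untreated (PKP2, PKP3, DSG2 and DSC2) and 5 with TNF, where JUP was added, and none was lower. With TNF, JUP was at 508, 618 and 510 CPM in N108 and 417, 439 and 437 in M3. Of 6 further desmosome genes outside the list, 2 were higher and 1 lower untreated, and 4 higher and 1 lower with TNF. The lower one was DSC3, at -1.18 (adjusted p = 2.1e-12) untreated and -1.12 with TNF. CDH1 was higher in N108 by 0.39 (SE 0.038, adjusted p = 8.3e-09), CTNNA1 by 0.16, TJP1 by 0.32, CGNL1 by 0.35 and PATJ by 0.23. EPCAM, CTNND1, CLDN12, CLDN15, TJP3 and CGN were lower in N108, at -0.15 to -0.29. CLDN4 and OCLN were at 0.01 (SE 0.055) and -0.06 (SE 0.054), and a difference between the mutants was not detected for them. NECTIN3 was at -0.20 (SE 0.079, adjusted p = 0.057) untreated and -0.45 (SE 0.080, adjusted p = 1.1e-04) with TNF.

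TNF for 40 min raised few of these genes. In WT 3 of 38 were higher and none lower (2.03% and 3.15% of all genes), in N108 2 were higher and none lower (1.1% and 0.0998%), and in M3 1 was higher and none lower (1.1% and 0.278%). At an unadjusted p under 0.05, 11 were higher and 1 lower in WT, 8 higher and 1 lower in N108, and 3 higher and 2 lower in M3. The shares of all genes at that unadjusted threshold are not given here, so these counts are not read as a trait of the list. In WT the median log2 fold change of the list was 0.07 against 0.01 over all genes. The median size of change there was 0.09 against 0.10. PARD6B (ENSG00000124171, chr20:50731544-50756795), which joins atypical protein kinase C to the PAR complex, rose in every line. It was at 20.4, 17.96 and 18.1 CPM in untreated WT and 30.4, 32.5 and 33.8 with TNF, at 20.8, 22.4 and 18.5 and then 27.8, 28.0 and 29.2 in N108, and at 20.5, 21.5 and 16.8 and then 31.5, 33.4 and 32.0 in M3. All treated libraries were above all untreated libraries of their line. The log2 fold change was 0.78 (SE 0.076, adjusted p = 6.9e-08) in WT, 0.46 (SE 0.076, adjusted p = 4.6e-04) in N108 and 0.72 (SE 0.076, adjusted p = 3.1e-07) in M3. The rise in N108 differed from that in WT by -0.32 (SE 0.11, adjusted p = 0.095), which did not pass.

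CLDN4 rose with TNF in WT and N108. It went from 295, 294 and 295 to 367, 367 and 413 CPM in WT, from 217, 199.9 and 210 to 250, 280 and 237 in N108, and from 201, 201 and 219 to 240, 230 and 232 in M3. The log2 fold change was 0.37 (SE 0.055, adjusted p = 4.5e-05) in WT and 0.29 (SE 0.055, adjusted p = 0.0021) in N108. In M3 it was 0.18 (SE 0.055, adjusted p = 0.17) and did not pass, although all treated libraries were above the untreated ones. The difference in response from WT was not past the threshold for either mutant (-0.08 in N108, adjusted p = 0.57, and -0.20 in M3, adjusted p = 0.39).

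CLDN12 passed in WT alone, going from 44.8, 39.9 and 39.7 to 46.2, 51.0 and 51.9 CPM (0.26, SE 0.070, adjusted p = 0.026). In N108 it went from 42.8, 45.9 and 40.7 to 39.3, 36.8 and 42.7 CPM (-0.12) and in M3 from 57.4, 53.7 and 46.9 to 49.4, 52.7 and 51.2 (-0.05), neither past the threshold. The response in N108 differed from that in WT by -0.38 (SE 0.099, adjusted p = 0.037), the single gene of 38 to do so (0 higher and 1 lower, against 2.03% and 0.583% of all genes). For M3 no gene of the list did (0.284% and 0.0315% of all genes), and the CLDN12 value was -0.31 (adjusted p = 0.23). Before adjustment, 1 gene of the list was higher and 6 lower at 0.05 for M3, and 3 were higher and 8 lower for N108. These counts are given without their shares over all genes and are not read as a trait of the list. Leaving out single libraries ended both CLDN12 calls: the adjusted p in WT was 0.10, 0.17, 0.14 and 0.13 without WT TNF replicate 2 or 3 or untreated WT replicate 2 or 3, and that of the interaction rose above 0.05 in 8 of 12 such fits, to 0.13 at most.

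Fold changes with TNF also moved with the GC content of the transcript. Over the 38 genes, Spearman's rho with GC was -0.48 for WT, 0.64 for N108 and -0.52 for M3, and over all genes with a GC value -0.30, 0.49 and -0.27. For the N108 interaction it was 0.75 over the 38 genes and 0.51 over all genes. N108 against M3 with TNF was at 0.39 and 0.32, and untreated at -0.10 and -0.03. These are correlations across genes, which share libraries and are not independent replicates. CLDN12 and PARD6B have transcripts of 38.1% and 40.0% GC, CLDN4 one of 57.5%. With an offset for GC in each library the count in WT rose from 3 to 11, all higher, adding CLDN3, CLDN7, CDH1, CDH3, ESRP1, TJP3, CRB3 and NECTIN2, and in M3 from 1 to 2, adding CLDN4. Under the same offset the interaction count went from 1 to 0 for N108 and from 0 to 3 for M3, all lower (CLDN3, CLDN4 and CLDN12). Without N108 TNF replicate 3, the library that departed most with GC (rho -0.52), the count in N108 rose from 2 to 9, 8 of them higher. Shares over all genes under these settings are not given here, so whether the rises were particular to the list was not tested. The calls of PARD6B in the 3 lines and of CLDN4 in WT and N108 passed under every setting tried.

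**Figure D5:**
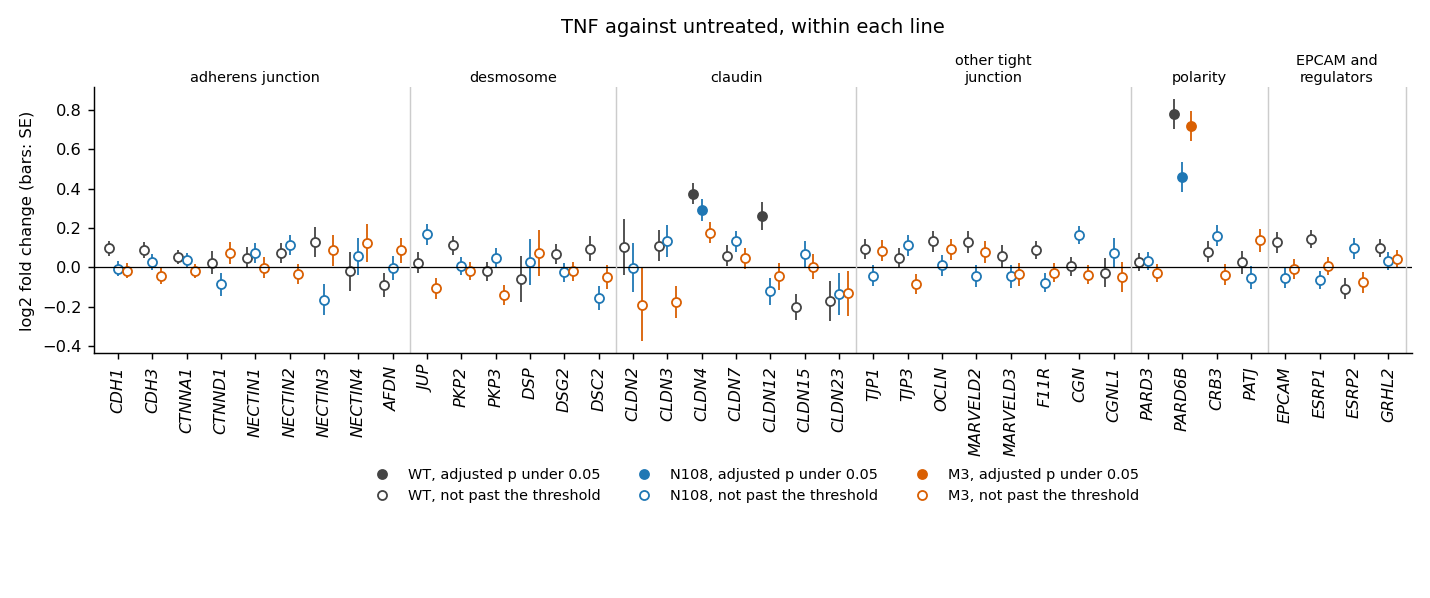
Log2 fold change (points) with SE (bars) of the 38 genes with TNF against untreated cells of the same line, WT (grey), N108 (blue) and M3 (orange), filled where the adjusted p was under 0.05. PARD6B stands out at 0.78, 0.46 and 0.72, followed by CLDN4 at 0.37, 0.29 and 0.18, and nearly all remaining points lie within 0.2 of zero.

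Other genes of the same structures, from longer lists, were counted in the same fits. Their counts stand beside 20.9% higher and 21.6% lower over all genes in untreated N108 against WT, and 26.1% and 26.8% in untreated M3. Untreated, of 9 other adherens junction genes 2 were higher and 5 lower in N108, and 1 higher and 7 lower in M3, where LIMA1, an actin-bundling partner of α-catenin, was at -0.95. AJUBA, a LIM protein of the junction, was lowest in N108 at -0.63. Vinculin (VCL), which ties α-catenin to actin, was highest in N108 at 0.15, and VEZT in M3 at 0.30. Of 6 other desmosome genes 3 were higher and 1 lower in N108, and 2 higher and 2 lower in M3. The desmosomal cadherin DSC3 had a level of 2.29 ± 0.19 CPM in the WT line, 6.80 ± 0.054 in N108, and 15.4 ± 0.55 in M3, a log2 fold change of 1.58 in N108 and 2.76 in M3. DSG4, another desmosomal cadherin, was highest of the list in N108 (2.54, adjusted p = 1.7e-07) at a low level, 0.163 ± 0.020 CPM in WT and 0.945 ± 0.021 in N108, while the plaque protein PPL was lowest in both mutants at -0.59 and -0.64.

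Of 18 other tight junction genes 6 were higher and 2 lower in N108, and 6 higher and 5 lower in M3. In N108 14 of the 18 had a positive log2 fold change, with a median of 0.22 against 0.01 over all genes. In M3 10 were positive, with a median of 0.07 against 0.00. AMOTL2, an angiomotin of the junction, was lowest in N108 at -1.30 and stood at -1.39 in M3. It rose with TNF in each line, by 0.24 in WT, 0.34 in N108 and 0.43 in M3. Of those 18 genes, 1 was higher and 0 lower with TNF in each line. The shares of all genes were 2.03% and 3.15% in WT, 1.1% and 0.0998% in N108, and 1.1% and 0.278% in M3. Of 20 other polarity genes 2 were higher and 6 lower in N108, and 1 higher and 11 lower in M3. LIN7A was highest in both (1.65 and 1.68), and PALS1, the protein that joins PATJ to Crumbs, was at -0.78 in N108 and -0.61 in M3, lowest of the list in N108. Untreated, PATJ, CRB3 and PALS1, which form a complex, were each below WT in both mutants, while LIN7A was above WT. With TNF, CRB3 in N108 was at -0.12 (adjusted p = 0.057) and did not pass.

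Of 18 other regulators of the epithelial state 4 were higher and 9 lower in N108, and 1 higher and 11 lower in M3. With TNF, 3 of these 18 were higher and 1 lower in WT (2.03% and 3.15% of all genes). In N108 2 were higher and 0 lower (1.1% and 0.0998%), and in M3 likewise (1.1% and 0.278%). The transcription factor ELF3 rose by 1.06 in the WT line, 0.93 in N108 and 1.01 in M3, and OVOL1 by 0.75, 0.40 and 0.59. Both were named after their values were seen. Of 13 genes of epithelial-mesenchymal transition tested, 4 were higher and 6 lower in N108, and 3 higher and 7 lower in M3. SNAI1, a repressor of CDH1, was at 8.98 ± 0.14 CPM in the WT line, 12.2 ± 0.44 in N108 and 11.2 ± 0.28 in M3 (0.45 and 0.32, adjusted p = 1.9e-06 and 1.5e-04). ZEB1 was at 1.86 ± 0.25, 1.51 ± 0.19 and 1.496 ± 0.12 CPM (-0.31, not past the threshold, and -0.33, adjusted p = 0.042). SNAI2 was at 0.378 ± 0.075, 0.248 ± 0.064 and 0.0685 ± 0.019 CPM, and lower in M3 (-2.46). Vimentin (VIM), the mesenchymal filament, was at 1.71 ± 0.065, 0.540 ± 0.12 and 0.465 ± 0.022 CPM, lower in both mutants (-1.66 and -1.88), and ZEB2 and the N-cadherin gene CDH2 were too low to be tested, at 0.091 CPM or less in untreated cells.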

How the data were processed

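Per the labels' protocols, 18 HCT116 RNA libraries were read from both ends at 50 bp. The authors deposited raw read counts per gene. The submitters' processing notes list STAR 2.7.8, Trim Galore 0.6.6, Subread 2.0.1 with featureCounts, DESeq2 1.38.3 and hg38. For the counting, the gene annotation and the strand option were not given in the sources used here. By GENCODE 29, 17 of the 39 genes share exon bases with another gene, 14 of them with one on the opposite strand, and such reads may not be told apart. A deposited normalized table was not used. Groups and replicate numbers came from the sample titles.

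filterByExpr with min.count 10 chose the genes to test (19038 genes, 99.97% of counts). Libraries were scaled with TMM and fitted in edgeR 4.0.16 (R 4.3.3) with a robust quasi-likelihood model of 6 group means over 18 libraries, leaving 12 residual degrees of freedom. The 11 comparisons were tested two-sided and adjusted by Benjamini-Hochberg over all genes tested, with a threshold of 0.05, and each SE was obtained by dividing the size of the log2 fold change by the root of its F statistic. CPM used TMM-scaled totals, and TPM the union exon length of GENCODE 29. GC content came from the longest transcript, for 97.4% of the genes tested. The fit was checked on simulated counts.

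The members, the other gene lists and the tests were chosen with earlier results of these data known. Values in every library are given for the 6 highest and 6 lowest called genes of the list in each mutant against WT untreated, for genes called with TNF or in an interaction, and for CDH1, EPCAM, GRHL2, ESRP1 and OCLN. Other lists are given as counts, with some of the called genes at their extremes and the transition genes ZEB1, ZEB2, SNAI1, SNAI2, VIM and CDH2. Settings tried were DESeq2 1.42.0, DESeq2 size factors, a filter of 1 CPM in 3 libraries, no filter, a replicate block, a GC offset per library, both together, only the groups compared, and leaving out each library. Precision depended on library totals, 49021907 to 76947190, and on the spread between libraries of a group. Between 2 libraries of a group, chi-square per degree of freedom was 3.42 to 23.5, more than counting noise alone gives.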

Additional observations from a re-analysis of the deposited data

Results flagged for a closer look

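CLDN12 was marked by the test of the difference between responses: its log2 fold change with TNF was lower in N108 than in WT by the interaction term, at -0.38 (SE 0.099, adjusted p = 0.037, edgeR's quasi-likelihood test over 18 libraries). It was 0.26 in WT and -0.12 in N108. The cause was not tested.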

How the results depend on the processing

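Differences between the lines held over the settings tried, each count staying within 1.5 times its value: M3 against WT untreated had 20 called genes (19 to 25 over all settings), N108 against WT untreated 17 (16 to 22), and with TNF 25 (24 to 26) and 22 (17 to 26). N108 against M3 had 18 (17 to 20) and with TNF 22 (16 to 23). None of the named values changed sign. Counts with TNF moved more, and they are given without the share over all genes under the same setting. In WT the count of 3 was 5 with DESeq2, 5 with only the groups compared, and 11 with the GC offset or with the GC offset and the replicate block together. In M3 the count of 1 was 2 with the GC offset, without the filter and with the block and offset together. In N108 the count of 2 ranged from 2 to 9 when a library was left out. For the interaction with N108 the count of 1 was 2 with DESeq2, 4 without the filter, 0 with the GC offset, 0 with the replicate block and 0 with both, and 0 to 6 when a library was left out, the 6 being without N108 TNF replicate 3. For the interaction with M3 the count of 0 was 1 without the filter and 3 with the GC offset, with or without the block. Without the replicate block the CLDN12 interaction had an adjusted p of 0.037, with it 0.058, and with the GC offset 0.066 at a value of -0.24. The cause was not tested. Some further values gained a call: EPCAM in N108 with only the groups compared, ESRP1 in M3 with the GC offset, and GRHL2 in M3 with the GC offset, the filter of 1 CPM or without M3 untreated replicate 3. Over all genes tested, libraries with the same replicate number had nearly uncorrelated deviations (correlations of -0.063 to 0.10 over the pairs). Their trends with GC shared a sign in untreated replicate 3 (rho 0.29 in WT, 0.25 in N108 and 0.46 in M3). Untreated replicate 2 did likewise (-0.093, -0.39 and -0.31), while untreated replicate 1 and the TNF replicates did not. Whether the numbers pair the samples cannot be told from these values. Library depth limits CLDN1, at 0 to 11 reads, and leaves CLDN2 with the widest SE among the genes called.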
